A study of Mus musculus with 9 samples.

Results

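The mouse genome names a large family of zinc finger genes Zfp followed by a number, and those with appreciable transcripts in splenic CD4+ T cells are described here. A gene was included when its symbol was Zfp and a number only, Zfp36 apart, and its mean over the 3 medium libraries was at least 5 TPM. TPM is a length-scaled share of all transcripts in a library. This rule took 239 genes of the 375 that carry such a symbol and of the 55487 listed. Another entry named Zfp91, with a medium mean of 1.10 TPM, is counted apart from the member Zfp91, among the genes below 5 TPM. Because the medium libraries chose the members, every comparison with medium is given as a description without a test. The difference between TRAIL-treated and stimulated cells takes no value from the medium libraries and was tested, although these libraries enter the shared estimate of spread behind its errors. With only the compared groups in the fit, the counts of members called were again 22 higher and 10 lower.

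The cells came from spleens of wild-type (Trail-r+/+) C57BL/6 mice, female and 6 to 7 weeks old according to the methods, and were isolated by negative selection. Each of 3 groups held 3 libraries: cells kept in medium, cells activated for 24 h through CD3 and CD28 (Abs at 3 and 2 µg/ml, the stimulated group), and cells activated in this way in the presence of TRAIL at 10 µg/ml. The Abs engage the TCR complex and its CD28 costimulatory receptor, and TRAIL is a TNF-related ligand, added to ask how it alters T cell activation. The sources used here give neither the culture time of the medium group nor whether the 3 libraries of a group came from separate mice, so p-values measure the spread between these libraries, which may be technical.

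Most proteins of this family read DNA with tandem C2H2 fingers, small folds held by a zinc ion. Many also carry a KRAB domain, which binds the corepressor TRIM28; TRIM28 in turn brings the methyltransferase SETDB1 and heterochromatin proteins, and this chain is best known for silencing transposable elements and for guarding genomic imprints. KRAB genes lie in tandem clusters of near copies, whereas family members without KRAB do more varied work, in ribosomes, splicing, chromatin loops and corepressor complexes.

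By open reading frames translated from GENCODE M21 transcripts, 137 members encode KRAB with at least 2 fingers, 89 encode fingers without KRAB, 11 encode fewer than 2 C2H2 fingers and 2 (Zfp125 and Zfp783) are annotated as transcribed pseudogenes. KRAB members had a median of 12 fingers and members without KRAB a median of 8. Chromosome 7 held 57 members, chromosome 17 held 32 and chromosome 13 held 22. A total of 101 members share at least 1 stretch of 100 bases with another gene and 115 overlap another annotated gene, so some of their reads could have been assigned to the wrong copy; 96 members have neither feature.

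The sequences shown first are the 250 bases before the annotated start of the pair of members that fell most with TRAIL, Zfp52 and Zfp948, which are direct neighbours on chromosome 17. Bases are 5′ to 3′ from RefSeq on GRCm38, and capitals mark stretches of at least 12 bases that both windows hold. The Zfp52 window is chr17:21535289-21535538 and the Zfp948 window is chr17:21566728-21566977, both on the plus strand.
Zfp52: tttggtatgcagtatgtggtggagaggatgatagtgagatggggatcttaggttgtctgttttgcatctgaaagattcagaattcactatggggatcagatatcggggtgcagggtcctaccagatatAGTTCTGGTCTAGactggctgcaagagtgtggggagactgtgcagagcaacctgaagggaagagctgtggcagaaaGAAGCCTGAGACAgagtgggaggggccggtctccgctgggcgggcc
Zfp948: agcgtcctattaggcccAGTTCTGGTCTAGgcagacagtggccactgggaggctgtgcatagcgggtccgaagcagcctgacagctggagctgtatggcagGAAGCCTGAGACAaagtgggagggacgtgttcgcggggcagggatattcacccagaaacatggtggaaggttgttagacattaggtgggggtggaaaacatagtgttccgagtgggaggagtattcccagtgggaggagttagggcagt
Both windows shared 26 bases in such stretches, the longest of 13 bases. The window of Zfp53, the next gene upstream, shared 12 bases in such a stretch with Zfp52, and Zfp948 had 50 bases in stretches shared with Zfp53.

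The next windows belong to Zfp945 and Zfp658, the largest rises with TRAIL among members that the RefSeq table of promoters holds (199 of 239 members; Zfp703 and Zfp831 are not in it). Capitals mark matches to the motifs searched. The Zfp945 window is chr17:22867135-22867384 on the minus strand and the Zfp658 window is chr7:43562120-43562369 on the plus strand. The RefSeq start of Zfp658 lies 114 bases inside the gene as the table places it (start 43562256), so the later part of its window, with the GC box, is within that gene.
Zfp945: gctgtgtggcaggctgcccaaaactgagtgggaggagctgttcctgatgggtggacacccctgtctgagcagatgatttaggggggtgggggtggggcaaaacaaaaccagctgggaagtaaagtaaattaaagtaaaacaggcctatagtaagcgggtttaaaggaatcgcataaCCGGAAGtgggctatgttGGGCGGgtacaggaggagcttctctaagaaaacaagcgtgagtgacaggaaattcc
Zfp658: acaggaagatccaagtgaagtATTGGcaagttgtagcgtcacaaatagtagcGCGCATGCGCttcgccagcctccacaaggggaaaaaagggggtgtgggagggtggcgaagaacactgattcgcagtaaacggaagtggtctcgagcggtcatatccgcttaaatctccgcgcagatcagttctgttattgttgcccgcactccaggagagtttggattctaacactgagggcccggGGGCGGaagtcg
Zfp945 held an ETS string and a GC box, and Zfp658 held a CCAAT box, read on the other strand as ATTGG, a GC box and an NRF1 string. Both strands of every window were searched, and a match to one motif may overlap a match to another. The CCAAT box stood in 50.3% of the members' windows, against 37.3% for all genes tested and 35.4% for all windows matched, and the shares that follow keep this order. The GC box, GGGCGG, stood in 43.2%, 58.0% and 39.1% of windows. The ETS string, CCGGAAG, stood in 18.1%, 14.5% and 8.39%. The Zfp143 string was in 5 members' windows, with shares of 2.51%, 0.655% and 0.349%, and the NRF1 string gave 3.52%, 1.65% and 0.941%. The E-box, CACGTG, gave 7.54%, 8.41% and 6.43%. The AP-1 string, TGANTCA, gave 3.02%, 4.12% and 6.53%. For the CRE string, TGACGTCA, the shares were 3.02%, 2.73% and 1.90%. Those of the heat shock element, GAANNTTC, were 8.04%, 5.13% and 6.45%, and those of the NFAT core, TGGAAA, were 19.6%, 15.4% and 17.8%. The members' share lay above both backgrounds for the CCAAT, ETS, Zfp143, NRF1, CRE, heat shock and NFAT strings, between them for the GC box and E-box, and below both for AP-1, and no difference was tested. A match is a run of letters and not a bound site.

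Facts of the libraries that bear on the members come first. TPM keeps no read totals, so depth is unknown. The SE of a difference comes from the spread within all 3 groups, pooled in 1 fit and moderated across genes. The defining T cell genes were present throughout, with a sum over 10 markers of 4106 to 4523 TPM in medium, 3965 to 4202 TPM in stimulated and 4064 to 4523 TPM in TRAIL-treated libraries. Markers of other cells moved with the groups: 10 B cell genes summed to 6009 to 6632 TPM in medium, 703 to 771 TPM after stimulation and 3052 to 3525 TPM with TRAIL. Both CD8 T cell genes together gave 110 to 118, 94.2 to 105 and 46.9 to 49.4 TPM. The 12 myeloid genes summed to 1728 to 1840, 101 to 111 and 1369 to 1542 TPM, and 7 erythroid genes to 2137 to 2585, 24.8 to 39.6 and 619 to 669 TPM, with Slc4a1 at the table's lowest value in all stimulated libraries and Alas2 in 1 of them. With TRAIL against stimulated cells, 9 of 10 B cell, 12 of 12 myeloid and 7 of 7 erythroid markers were called higher, 1 of 2 CD8 T cell markers lower and 0 of 10 T cell markers either way. In bulk RNA, fewer cells of a type and less RNA per cell cannot be told apart, and the part of these cells in the members' values was not tested. The stimulated library with replicate number 1 stood apart from the other two, with a sum over members of 4020 TPM against 5048 and 4836 TPM, and counts are also given without it.

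Together the members made up a small share of all transcripts, and that share was largest in medium. Their sum was 6319 to 6576 TPM in medium, 4020 to 5048 TPM after stimulation and 4818 to 5524 TPM with TRAIL. The medium libraries lay above all others, whereas the stimulated and TRAIL-treated ranges overlapped. The median member stood at 19.1 TPM in medium, 12.2 TPM in stimulated and 14.8 TPM in TRAIL-treated cells, as means over libraries. KRAB members were lower, with a median of 14.5 TPM in medium, than members with fingers but no KRAB, at 27.0 TPM. All 239 members reached at least 1 TPM in every library, with a lowest single value of 1.39 TPM, and all passed the filter of the test. Replicates of a member varied by a median coefficient of variation of 9.85% in medium, 13.5% after stimulation and 11.3% with TRAIL.

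**Figure D1:**
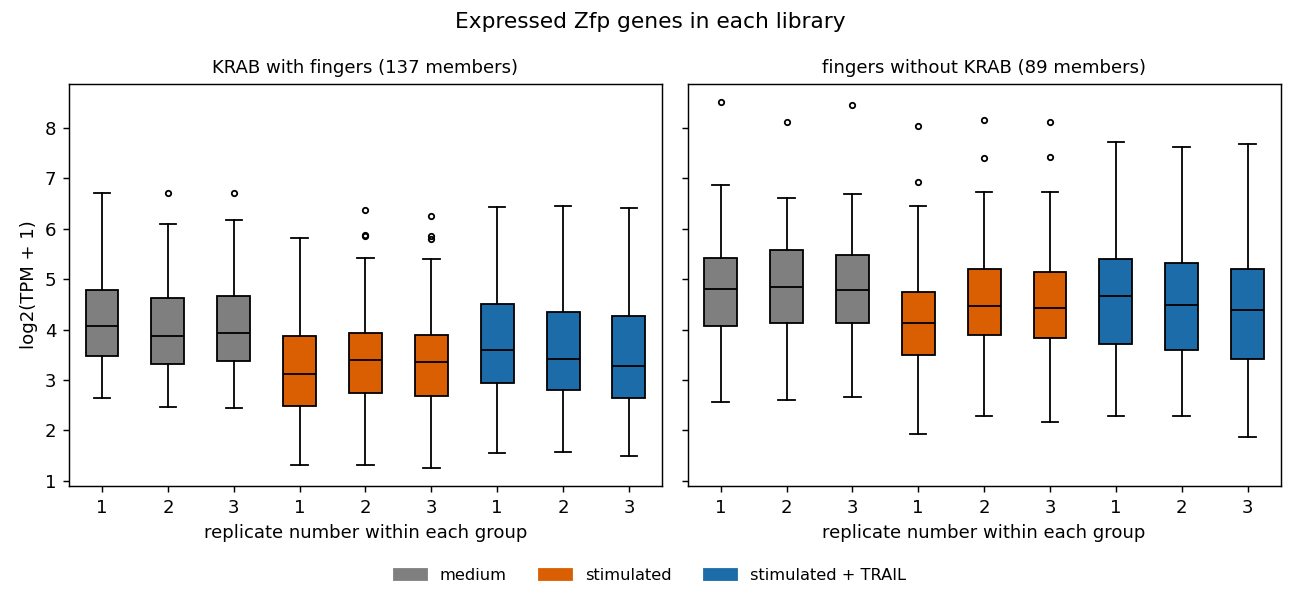
Boxes give the log2(TPM + 1) of members in each library, for 137 KRAB members and 89 members with fingers but no KRAB, with the line at the median, box edges at the quartiles, whiskers within 1.5 times the box and points beyond. Medium boxes sit highest in the KRAB class, where the stimulated library with replicate number 1 has the lowest median (7.69 TPM), and the TRAIL-treated library with number 3 (8.74 TPM) lies below the other stimulated libraries (9.48 and 9.29 TPM).

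The most abundant members were these. Zfp207, a spindle and kinetochore protein, was the most abundant, with 363, 274 and 348 TPM in medium, 262, 285 and 275 TPM in stimulated and 208, 196 and 205 TPM in TRAIL-treated libraries. All TRAIL-treated libraries lay below all others for this gene, and its fall against stimulated cells passed the adjusted p but not the minimum size (log2 difference -0.43 ± 0.11 SE, adjusted p = 0.00588). Zfp445, which maintains genomic imprints, followed at a mean of 104 TPM in medium, then Zfp62 (103 TPM) and Zfp638 (102 TPM), a protein that helps silence unintegrated retroviral DNA. Zfp292 (94.2 TPM), Zfp740 (88.2 TPM), the BTB factor Zfp131 (87.8 TPM), Zfp91 (86.5 TPM), an atypical ubiquitin ligase, Zfp384 (84.9 TPM), a fusion partner in some B cell leukemias, and Zfp800 (78.2 TPM) completed the 10 most abundant. After Zfp207, the medium libraries of each of these genes overlapped those of the next, so their order is not firm.

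At the threshold of 5 TPM, the members just inside were Zfp940 at a medium mean of 5.13 TPM, Zfp78 at 5.27 TPM and Zfp808 at 5.49 TPM. Just outside were Zfp846 at 4.94 TPM, Zfp689 at 4.93 TPM and Zfp968 at 4.88 TPM. Single medium libraries did not separate the genes at the threshold, at 5.29, 4.70 and 5.41 TPM for Zfp940 and 4.75, 5.16 and 4.90 TPM for Zfp846.

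Against medium, stimulated cells held less of most members. The log2 difference, on the log2(TPM + 1) scale, was below 0 for 205 of 239 members, with a median of -0.60, against a median of -0.17 for 11353 tested genes with the same minimum in medium. Of those genes, 6491 were below 0. A difference of at least 1 downward was seen for 57 members, and 20.2% of those genes showed one; upward it was seen for 5 members, and 10.9% of those genes showed one. The rule used the medium libraries, so nothing is read from these shares. KRAB members had a median of -0.73 and members with fingers but no KRAB a median of -0.38. The 5 that went up were Zfp52, Zfp281, Zfp593, Zfp219 and Zfp948, and the furthest down was Zfp945, which stood at 21.6, 17 and 20.2 TPM in medium and 1.94, 3.24 and 2.11 TPM after stimulation.

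TRAIL-treated cells lay closer to medium. The log2 difference from medium had a median of -0.39, against -0.21 for the 11353 tested genes with the same minimum. It was below 0 for 218 members and for 8388 of those genes. It was at least 1 downward for 11 members, beside 2.55% of those genes, and upward for Zfp703 alone, beside 2.02%. This comparison shares the medium libraries with the last and the TRAIL-treated libraries with the next, and like the last it carries no test.

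The question tested was whether TRAIL, added during stimulation, changed the members' transcripts. Of 239 members, 22 were called higher and 10 lower in TRAIL-treated than in stimulated cells (limma, adjusted p under 0.05 and an absolute log2 difference of at least 1), and 207 were not called. These are 9.21% and 4.18% of members, against 16.6% and 14.3% of 15536 genes tested and 17.3% and 13.9% of tested genes with at least 5 TPM in medium. Both shares of members lie below these background shares, and that difference was not tested. On the adjusted p alone, 89 members were higher and 45 lower, 37.2% and 18.8%, against 33.5% higher and 33.5% lower among genes tested. The 3 TRAIL-treated libraries lay above all 3 stimulated libraries for 97 members and below them for 44, or 40.6% and 18.4%, where 35.5% and 34.9% of genes tested did so. The median log2 difference of members was 0.20, beside 0.01 for genes tested. Without the stimulated library of replicate number 1, 14 members were called higher and 13 lower. These are 5.86% and 5.44% of members, beside 15.1% and 14.8% of genes tested in the same fit. The median of members was then 0.07 and that of all genes tested -0.04. With other scalings of the libraries the median of members was 0.29 (median of ratios), 0.17 (quantile) and 0.12 (GC content and length), beside 0.09, -0.05 and -0.05 for all genes tested.

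**Figure D2:**
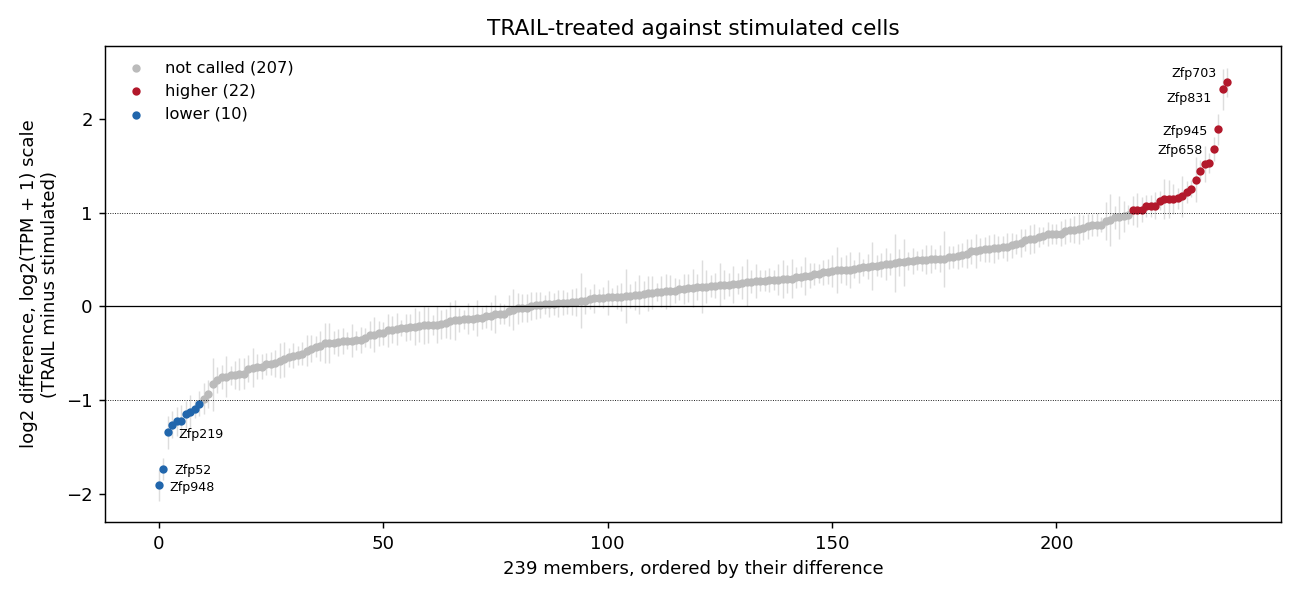
Each point is a member, ordered by its log2 difference between TRAIL-treated and stimulated cells on the log2(TPM + 1) scale, with bars of 1 SE, dotted lines at the minimum size of a call, and color for the 22 members called higher and 10 called lower. Most members lie within 1 of 0, and Zfp703 and Zfp948 mark the ends at 2.39 and -1.91.

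Zfp703 showed the largest rise. It encodes a corepressor of the NET family, related to developmental repressors, and is known as an amplified gene in luminal breast cancer. Its level was 15.7, 23.3 and 19.8 TPM in medium, 7.62, 10.6 and 9.98 TPM after stimulation and 49.3, 53.1 and 57.2 TPM with TRAIL. The gene overlaps Gm45371 and is among the members that share at least 1 stretch of 100 bases with another gene. Its TRAIL-treated libraries lay above all 6 others, and the log2 difference from stimulated cells was 2.39 ± 0.16 SE (adjusted p = 4.61e-07). Zfp831, with fingers but no KRAB, had another pattern, at 28.2, 37.0 and 29.4 TPM in medium, 3.04, 6.67 and 5.59 TPM after stimulation and 32.9, 26.7 and 25.8 TPM with TRAIL. Its TRAIL-treated and medium libraries overlapped, and both groups lay above the stimulated libraries (log2 difference 2.32 ± 0.22 SE, adjusted p = 6.55e-06).

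The next rises were KRAB genes. Zfp945, low after stimulation as given above, stood at 13, 10.9 and 10.8 TPM with TRAIL, above all stimulated and below all medium libraries (1.89 ± 0.16 SE, adjusted p = 2.91e-06). Zfp658 had 8.88, 9.88 and 7.94 TPM in medium, 1.48, 1.55 and 1.56 TPM after stimulation and 8.15, 7.01 and 6.29 TPM with TRAIL (1.68 ± 0.13 SE, adjusted p = 1.16e-06), but the difference was 0.89, below the size of a call, with a pseudocount of 5. Zfp386 had 62.0, 49.4 and 55.3 TPM, then 14.8, 13.7 and 15.3 TPM, then 42.1, 43.2 and 46.8 TPM in the same order of groups (1.53 ± 0.11 SE). For all of these the stimulated libraries were the lowest of the 9. Zfp287 had 20.9, 22.4 and 22.8 TPM in medium, 4.04, 6.62 and 6.70 TPM after stimulation and 22, 18.7 and 14.2 TPM with TRAIL (1.52 ± 0.19 SE). Zfp868 had 27.0, 21.9 and 24.8 TPM, then 13.1, 12.4 and 12.4 TPM, then 32.3, 38.1 and 38.8 TPM (1.45 ± 0.11 SE), so its TRAIL-treated libraries also exceeded medium.

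Zfp318, which mature B cells need to express IgD, is a lymphocyte gene of the family. It had 34.2, 42.5 and 35.7 TPM in medium, 4.42, 9.15 and 8.98 TPM after stimulation and 24.0, 20.5 and 16 TPM with TRAIL. The groups did not overlap, and the rise with TRAIL over stimulated cells was called (1.35 ± 0.24 SE, adjusted p = 0.000559). The order of its groups was that of the summed B cell markers given above, whose part in this result was not tested. The other lymphocyte gene listed, Zfp335, which newly made T cells need to mature, had 14.4, 30.1 and 28.5 TPM after stimulation and 39.2, 32.6 and 27.0 TPM with TRAIL, and these overlapped (0.47 ± 0.25 SE, adjusted p = 0.119).

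**Figure D3:**
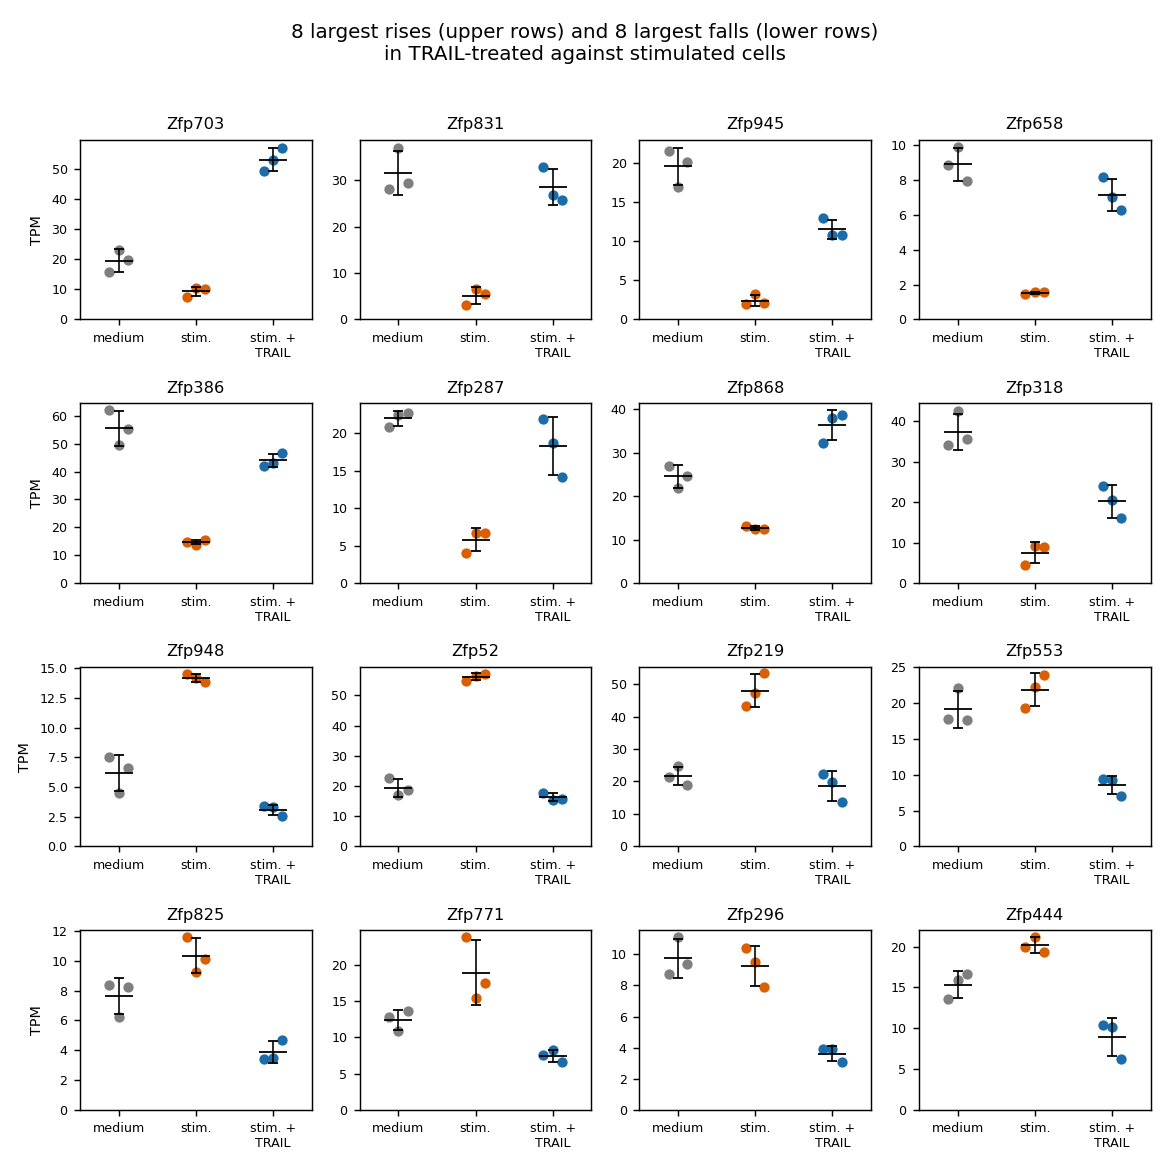
Points are TPM in single libraries and bars the mean and SD of 3 libraries, for the 8 members with the largest rise (upper rows) and the 8 with the largest fall (lower rows) in TRAIL-treated against stimulated cells, each axis starting at 0. The stimulated libraries lie below medium in all 8 upper panels, whereas in the lower panels they lie above medium except for Zfp553 and Zfp296, whose medium and stimulated libraries overlap.

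The falls were led by the neighbours whose start regions are shown above. Zfp948 had 7.49, 4.54 and 6.62 TPM in medium, 14.5, 14.2 and 13.9 TPM after stimulation and 3.38, 3.28 and 2.55 TPM with TRAIL. The TRAIL-treated libraries were the lowest and the stimulated the highest (-1.91 ± 0.16 SE, adjusted p = 3.04e-06). Zfp52 had 22.8, 16.9 and 18.5 TPM in medium, 54.9, 56.5 and 57.1 TPM after stimulation and 17.8, 15.3 and 15.6 TPM with TRAIL, the last overlapping medium (-1.73 ± 0.12 SE, adjusted p = 5.88e-07). Neither gene shares a stretch of 100 bases with another gene, and Zfp52 overlaps 9330136K24Rik.

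Members without KRAB made up most of the other falls. Zfp219 had 21.5, 24.6 and 19.0 TPM in medium, 43.3, 47.2 and 53.3 TPM after stimulation and 22.4, 19.8 and 13.6 TPM with TRAIL (-1.34 ± 0.17 SE). Zfp553 had 17.7, 22.1 and 17.6 TPM, then 19.4, 22.3 and 23.9 TPM, then 9.40, 9.19 and 7.05 TPM (-1.26 ± 0.14 SE). In Zfp553 medium and stimulated libraries overlapped and those with TRAIL lay below both. The same was seen for Zfp296, at means of 9.74, 9.27 and 3.62 TPM (-1.15 ± 0.14 SE). The KRAB gene Zfp825 fell from 10.3 to 3.86 TPM (-1.23 ± 0.16 SE), Zfp771 from 19.0 to 7.47 TPM (-1.22 ± 0.16 SE) and Zfp444 from 20.2 to 8.93 TPM (-1.12 ± 0.17 SE), as means of stimulated and TRAIL-treated libraries. With a pseudocount of 5 the differences of Zfp553 (-0.99), Zfp296 (-0.73), Zfp825 (-0.79), Zfp771 (-0.93) and Zfp444 (-0.87) fell short of the size of a call. The last 2 of the 10, chosen by the call alone or by their role, were Zfp422 (-1.09 ± 0.10 SE) and Zfp281 (-1.04 ± 0.13 SE).

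Other members called higher, named because the count was given, were Zfp212, Zfp747, Zfp292, Zfp869, Zfp995, Zfp398, Zfp592, Zfp954, Zfp758, Zfp956, Zfp644, Zfp68, Zfp652 and Zfp467, with log2 differences from 1.03 to 1.26. All 32 called members had stimulated and TRAIL-treated libraries that did not overlap. The share of all called genes that did so was not computed. In Zfp212, Zfp747, Zfp869, Zfp868, Zfp954 and Zfp703 the TRAIL-treated libraries lay above the other 6. Among all members, called or not, TRAIL-treated libraries lay above the other 6 for 12 and below them for 38. Shares of these patterns over all genes were not computed. The members with the smallest absolute difference were Zfp983, Zfp672, Zfp777, Zfp27 and Zfp64, all between -0.01 and 0.02 with standard errors of 0.14 to 0.15.

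By protein class, the counts read as follows, beside 16.6% higher and 14.3% lower among genes tested. Of 137 KRAB members, 13 were called higher and 3 lower, with a median of 0.27; of 89 with fingers but no KRAB, 8 were higher and 7 lower, with a median of 0.16. Of 11 with fewer than 2 fingers, Zfp703 alone was called. Without the stimulated library of replicate number 1, the KRAB counts were 10 and 3 and those without KRAB 3 and 8. In that fit 15.1% of genes tested were called higher and 14.8% lower. The difference between classes was not tested, since the members were chosen with results known. By level in medium, 1 of 49 members between 5 and 10 TPM was called higher, 5 of 76 between 10 and 20 TPM, 12 of 85 between 20 and 50 TPM and 4 of 29 above 50 TPM. In the same classes 3, 4, 2 and 1 members were called lower. The shares of all genes tested at these levels were not computed. Differences on the log2(TPM + 1) scale understate the change of low genes, so nothing is read about the members from these counts.

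Neighbouring members were read in runs, and no test of a shared direction was made. With gaps of at most 200 kb allowed, 64 members lay in 8 runs of at least 5 members. The longest held 14 KRAB genes at chr13:67038596-67827002 (GRCm38), where the summed level was 242, 199 and 222 TPM in medium, 97.2, 105 and 94.1 TPM after stimulation and 141, 139 and 142 TPM with TRAIL. The 3 groups did not overlap. None of these 14 genes reached the minimum size of a call with TRAIL, although 10 were higher on the adjusted p, beside 33.5% of genes tested and 37.2% of members, for example, chosen after their values were seen, Zfp712 (0.87 ± 0.11 SE, adjusted p = 6.94e-05) and Zfp87 (0.77 ± 0.11 SE, adjusted p = 9.24e-05). In this run 12 of 14 genes share stretches of 100 bases with other genes, Zfp708 over its whole length, so its values cannot be assigned to single copies with certainty.

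A run of 7 KRAB genes at chr17:21879570-22456689, Zfp995 to Zfp946, summed to 214, 162 and 195 TPM in medium, 62.7, 72.6 and 66.3 TPM after stimulation and 134, 121 and 124 TPM with TRAIL. All 7 differences with TRAIL were above 0, 6 passed the adjusted p, and Zfp995 and Zfp758 were called higher, beside 33.5% and 16.6% of genes tested on these criteria. The adjacent run of 7 KRAB genes at chr17:21383748-21664966 held Zfp52 and Zfp948 and showed both directions. Zfp677 rose on the adjusted p with TRAIL, from 7.79, 9.79 and 8.17 TPM to 15, 15.8 and 16.2 TPM (0.80 ± 0.13 SE, adjusted p = 0.000374), as did Zfp51, from 21.1, 20.7 and 22.3 TPM to 32.1, 30.4 and 33.0 TPM (0.55 ± 0.13 SE, adjusted p = 0.0032). Zfp53, which begins nearest upstream of Zfp52, went from 38.8, 38.5 and 38.6 TPM to 42.4, 42.9 and 39.3 TPM, which did not pass the test (0.10 ± 0.09 SE, adjusted p = 0.361). Zfp54 was lower on the adjusted p, from 6.86, 8.87 and 9.27 TPM to 6.52, 4.84 and 4.42 TPM (-0.58 ± 0.19 SE, adjusted p = 0.0184). On that criterion 2 genes of this run were higher and 3 lower, counting Zfp52 and Zfp948.

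**Figure D4:**
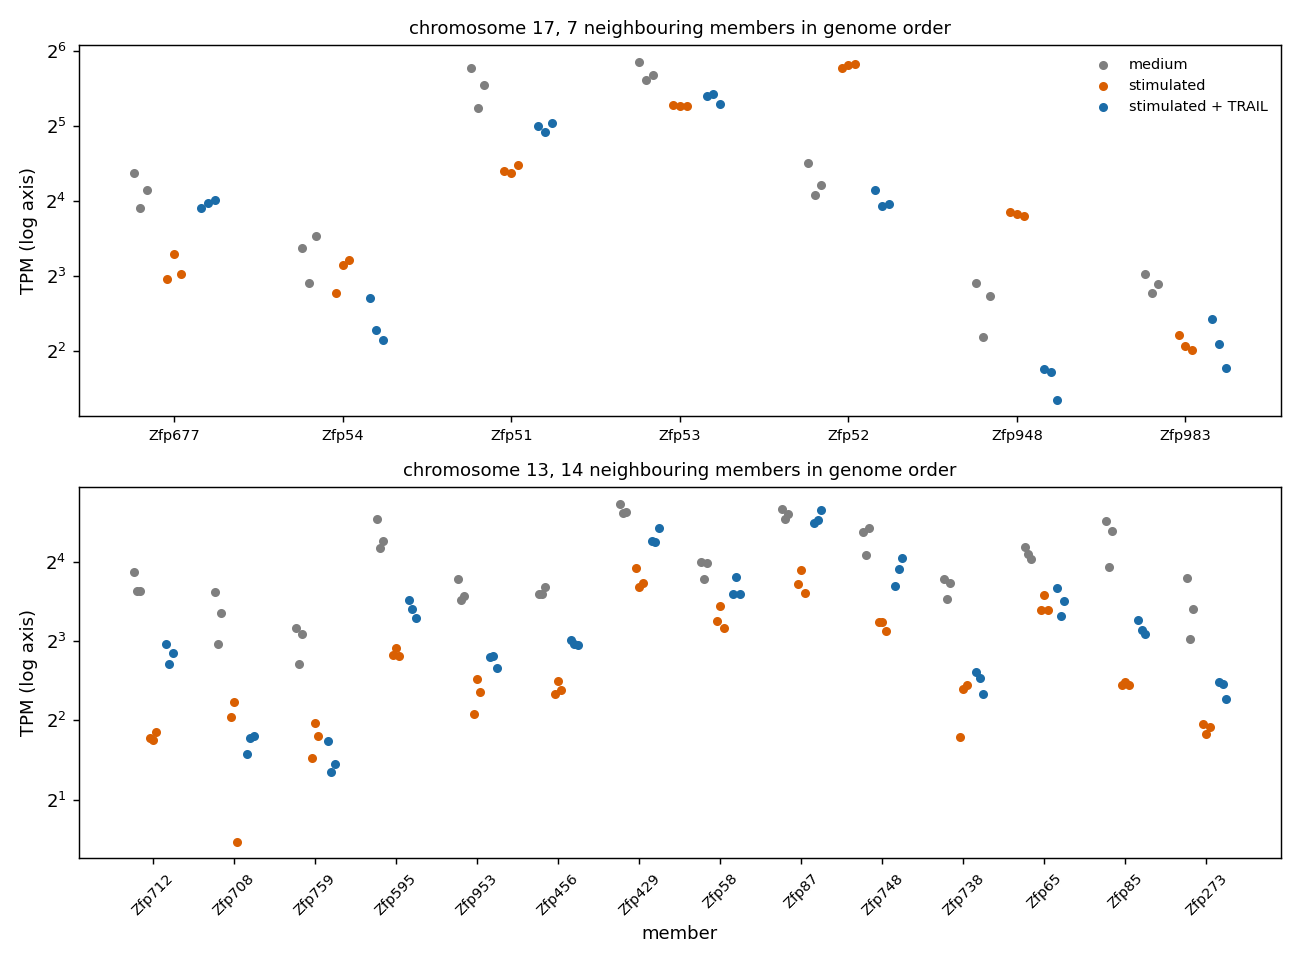
Points are TPM in single libraries on a log axis for neighbouring members in genome order, 7 on chromosome 17 (upper panel) and 14 on chromosome 13 (lower panel), colored by group. On chromosome 17 the stimulated libraries of Zfp52 and Zfp948 lie above the other groups and those of Zfp677 and Zfp51 below, whereas on chromosome 13 medium lies highest for nearly every gene.

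Members of a further run on chromosome 7 that begins with Zfp553 and Zfp771 also split, since those fell and Zfp747, in the same run, was called higher (1.22 ± 0.12 SE, adjusted p = 8.34e-06). On chromosome 6, Zfp398, Zfp212 and Zfp956 were called higher in a run of 7, beside 16.6% of genes tested, whereas the pseudogene Zfp783 within it had a log2 difference of -0.75. The 13 members of a run on chromosome 7 from Zfp84 to Zfp146 gave no call, beside 16.6% of genes tested called higher and 14.3% lower. On the adjusted p, 2 of them were higher and 1 lower, beside 33.5% of genes tested in either direction.

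Members with known work outside classical repression were read by role. In the ribosome and RNA group none of 8 members was called, with 3 higher and 3 lower on the adjusted p, or 37.5% each, near the 33.5% of genes tested in either direction. Zfp622, which matures the large ribosomal subunit, had 65.3, 64.6 and 61.1 TPM in medium, 61.6, 68.4 and 65.1 TPM after stimulation and 115, 124 and 121 TPM with TRAIL. Medium and stimulated libraries overlapped and those with TRAIL lay above both (0.87 ± 0.08 SE, adjusted p = 6.6e-06). Zfp598, a ubiquitin ligase that senses collided ribosomes, went the other way, from 67.8, 87.3 and 88.1 TPM to 52.0, 48.6 and 39.5 TPM (-0.78 ± 0.14 SE, adjusted p = 0.000557). Zfp593, linked to export of the large ribosomal subunit, stood at means of 10.2, 24.9 and 15.2 TPM in the 3 groups (-0.66 ± 0.14 SE, adjusted p = 0.00218), but 60.3% of its transcript is shared with another gene. The RNA-binding Zfp106 (-0.65 ± 0.21 SE, adjusted p = 0.0187), Zfp638 (0.65 ± 0.13 SE, adjusted p = 0.00134) and the splicing factor Zfp326 (0.35 ± 0.10 SE, adjusted p = 0.0122) also passed the adjusted p. Zfp346 (-0.20) and Zfp830 (0.09) did not. The stimulated and TRAIL-treated libraries of Zfp106 overlapped, and 24.2% of its transcript is shared with another gene.

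Among 7 activators and architectural factors, Zfp281, a regulator of pluripotency genes that works with the NuRD remodeler, was called lower, 14.3% of the list and the same share as of genes tested. It had 52.4, 57.5 and 53.1 TPM in medium, 120, 168 and 169 TPM after stimulation and 73.7, 75 and 69.6 TPM with TRAIL, and no groups overlapped (adjusted p = 5.28e-05). Its size lies close to the minimum of a call, and it was -0.94 with other size factors. Its paralog Zfp148 moved oppositely, from 18.0, 28.8 and 26.8 TPM to 41.3, 39.9 and 39.96 TPM (0.72 ± 0.15 SE, adjusted p = 0.00171). Zfp410, known for activating Chd4, rose on the adjusted p from 33.4, 36.1 and 36.9 TPM to 52.3, 46.2 and 44.9 TPM (0.42 ± 0.09 SE, adjusted p = 0.00235), while Chd4 itself stood at 215, 376 and 367 TPM after stimulation and 219, 195 and 169 TPM with TRAIL, which overlapped (-0.68 ± 0.21 SE, adjusted p = 0.0152). Zfp143, which binds promoters at the site searched above, rose on the adjusted p (0.47 ± 0.15 SE, adjusted p = 0.0149), and Zfp384, Zfp131 and Zfp335 did not pass it.

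Of 5 genes listed as corepressor and cofactor partners, a list that does not hold Zfp703, Zfp592 and Zfp644 were called higher, beside 16.6% of genes tested. Without the stimulated library of replicate number 1 neither was called, at log2 differences of 0.88 and 0.98. Zfp592, which joins ZMYND8 complexes, went from 18.6, 32.9 and 33.2 TPM to 70.0, 62.6 and 53.2 TPM with TRAIL (1.14 ± 0.21 SE, adjusted p = 0.000812). Its partner Zfp687 had means of 16.3 and 20.6 TPM, and their libraries overlapped (0.33 ± 0.20 SE, adjusted p = 0.185). Zfp644, which brings the G9a methyltransferase to DNA, went from 16.4, 20.6 and 19.5 TPM to 44.3, 39.0 and 38.4 TPM (1.07 ± 0.12 SE, adjusted p = 1.8e-05). Zfp217, a partner of the CtBP corepressor, did not pass the test (0.24, adjusted p = 0.313), and Zfp609, linked to the cohesin loader Nipbl, was lower on the adjusted p only with overlapping libraries (-0.83 ± 0.29 SE, adjusted p = 0.025).

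The ligases Zfp91 (0.22, adjusted p = 0.119) and Zfp451 (-0.02, adjusted p = 0.918) were not called. Nor were the members best known for silencing repeats and imprints. Zfp809, which silences murine leukemia virus copies, stood at 31.6, 58.0 and 54.1 TPM after stimulation and 50.2, 42.4 and 39.5 TPM with TRAIL (-0.08 ± 0.20 SE, adjusted p = 0.737). Zfp445 had 48.2, 81.6 and 74.9 TPM and 84.1, 74.7 and 64.0 TPM (0.15 ± 0.18 SE, adjusted p = 0.486), and Zfp568, a repressor of a placental Igf2 transcript, had means of 11.6 and 10.2 TPM (-0.15 ± 0.21 SE, adjusted p = 0.56). The libraries of the groups overlapped for these genes. Zfp639 was lower on the adjusted p (-0.37 ± 0.09 SE, adjusted p = 0.00434), and Zfp746, a substrate of the parkin ligase, was higher (0.36 ± 0.13 SE, adjusted p = 0.0344). The stimulated and TRAIL-treated libraries overlapped for Zfp746 and did not for Zfp639.

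Silencing machinery recruited by KRAB proteins, together with cofactors of other members and of chromatin architecture, was followed through a list of 40 symbols for 39 genes, since Fam208a is the former symbol of Tasor. All 39 were found and 38 tested. With TRAIL against stimulated cells, 2 were called higher and 7 lower, or 5.26% and 18.4%, beside 16.6% and 14.3% of genes tested. The median log2 difference was -0.51, beside 0.01 for genes tested, and nothing is claimed for the list from these shares. Trim28, the KRAB corepressor, had 109, 135 and 110 TPM in medium, 189, 204 and 195 TPM after stimulation and 128, 121 and 102 TPM with TRAIL. It fell on the adjusted p without reaching the minimum size (-0.74 ± 0.12 SE, adjusted p = 0.00024), and Setdb1, the methyltransferase it brings, had overlapping libraries (-0.43 ± 0.17 SE, adjusted p = 0.0463).

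The genes called lower were Uhrf1, Dnmt1, Cbx5, Cbx1, Suv39h1, Mbd3 and Rbbp7. Uhrf1, which guides maintenance DNA methylation after replication, had 109, 157 and 155 TPM after stimulation and 18.1, 18.0 and 13.7 TPM with TRAIL (-3.00 ± 0.17 SE, adjusted p = 1.44e-07). Dnmt1, the enzyme it guides, had 99.4, 190 and 186 TPM and 65.1, 59.1 and 47.1 TPM (-1.41 ± 0.24 SE, adjusted p = 0.000414). Cbx5, a heterochromatin protein, went from 40.1, 69.1 and 64.4 TPM to 17.4, 15.6 and 12.5 TPM (-1.84 ± 0.19 SE, adjusted p = 1.34e-05). Those called higher were the NuRD remodeler Chd3, from 67.9, 116 and 112 TPM to 390, 330 and 283 TPM (1.78 ± 0.20 SE, adjusted p = 2.58e-05), and Atf7ip, the partner of SETDB1, from 17.4, 36.5 and 33.9 TPM to 77.7, 64.8 and 61.0 TPM (1.25 ± 0.24 SE, adjusted p = 0.000984). The stimulated library of replicate number 1 was the lowest of its group for each of these except Rbbp7.

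**Figure D5:**
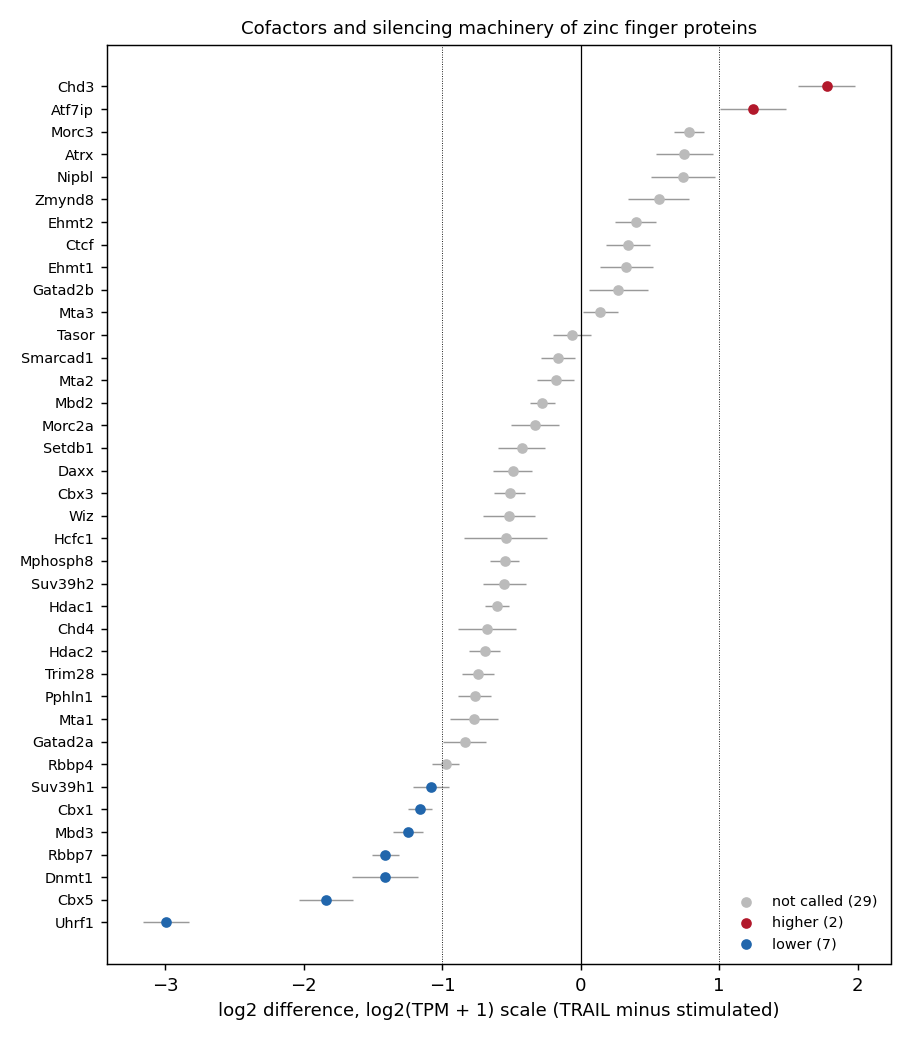
Points are log2 differences between TRAIL-treated and stimulated cells on the log2(TPM + 1) scale for 38 cofactor genes, with bars of 1 SE and dotted lines at the minimum size of a call. The 7 genes called lower run from Suv39h1 at -1.08 to Uhrf1 at -3.00, and Chd3 and Atf7ip lie at 1.78 and 1.25.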

How the data were processed

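RNA-seq of 9 libraries (3 groups of 3, grouped by the sample labels) was read from a table of TPM values deposited by the authors, with a total of 1000000 per library. According to the methods and the submitters' processing notes, the authors used Trimmomatic 0.36 for trimming and HISAT2 2.1.0 for alignment to GRCm38; the notes also name SAMtools 1.2, StringTie 2.1.2, DESeq2 and the build GRCh38, which does not match the mouse loci of the table. The program behind the TPM values, the annotation release and the strand setting are not given in the sources used here. TPM holds relative abundance, so depth and counting error are unknown, and a rise in some genes lowers the share of others. The table has no column of values that was left unused.

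Differences were computed with limma 3.58.1 in R 4.3.3 (lmFit, eBayes with trend, two-sided, Benjamini-Hochberg over all genes tested) on log2(TPM + 1), in 1 fit of 9 libraries without a block, for the 15536 genes that reached 1 TPM in 3 or more libraries. Fold changes on this scale understate the change of low genes. A call needed an adjusted p under 0.05 and an absolute log2 difference of at least 1. The test was also run on simulated data, and the outcome of that run is not given here. The members, gene lists and tests were chosen with earlier results of these data known.

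Named were the 10 members highest in medium, the 8 largest rises and 8 largest falls among called members without overlapping libraries, the 5 smallest differences, members with well-known roles, and the 3 genes on either side of the threshold. Fingers and KRAB were found by pattern in translated GENCODE M21 transcripts, and that grouping, the runs of neighbours, the motifs and the level classes were added after the values were seen. Of the members, 236 lie at the same locus in GENCODE M21. Alternatives varied the pseudocount, filter, scaling, variance trend, libraries, block and thresholds, and 2 were added after seeing the data: a correction for GC content and length, and a restriction to members free of shared or overlapping sequence. Python 3.11.15 and pandas 2.3.3 were used for tables.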

Additional observations from a re-analysis of the deposited data

How the results depend on the processing

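In TRAIL-treated against stimulated cells, 22 members were called higher and 10 lower, and the median log2 difference was 0.20. A pseudocount of 5 gave 11 and 3, and the adjusted p alone gave 89 and 45, with 29 cofactors in place of 9. The 96 members free of shared stretches and overlaps gave 9 and 3, or 9.4% and 3.1% of them, beside 9.2% and 4.2% of all members. The median difference between stimulated cells and medium, -0.60, became -0.46 with a pseudocount of 5, -0.39 with quantile normalization and -0.38 when GC content and length were corrected for. That between TRAIL-treated cells and medium, -0.39, became -0.21 with median-of-ratios scaling, -0.23 with quantile normalization and -0.24 with the correction. These scalings also moved the median of all genes tested, by 0.19 between stimulated cells and medium with quantile normalization and by 0.17 and 0.14 between TRAIL-treated cells and medium. The cause of the other changes was not tested. Leaving out 1 library at a time gave 14 to 28 members called higher, 9 to 13 lower, 8 to 10 cofactors called, and medians of 0.071 to 0.29 with TRAIL against stimulated, -0.66 to -0.47 for stimulated against medium and -0.46 to -0.34 for TRAIL-treated against medium. The lowest count higher, 14, was without stimulated replicate 1.

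The replicate block left 22 and 10 calls. Deviations of same-numbered libraries from their group means correlated between -0.31 and 0.29. Those of libraries with different numbers correlated between -0.38 and 0.29. With 3 libraries per group, these values cannot show whether the numbers pair the samples.

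Of 380 alternative values of the 20 called named members, 362 kept the call and 18 lost it, 8 of these with a pseudocount of 5: Zfp658 (0.89), Zfp644 (0.94), Zfp281 (-0.9995), Zfp553 (-0.99), Zfp771 (-0.93), Zfp444 (-0.87), Zfp825 (-0.79) and Zfp296 (-0.73). The others were Zfp281 (-0.94 with median-of-ratios scaling, -0.83 with quantile normalization, -0.96 and -0.95 without stimulated replicate 2 or 3), Zfp292 (0.77 with the correction and 0.86 without stimulated replicate 1), Zfp296 (-0.91 with the correction), Zfp592 and Zfp644 (0.88 and 0.98 without stimulated replicate 1) and Zfp444 (-0.91 without TRAIL-treated replicate 3).

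Alternatives were run for the 56 members named by rule, and among these the sign turned for none of the 20 called. Between TRAIL-treated and stimulated cells, median-of-ratios scaling moved the median of all genes by 0.083, so the turns under it restate a shift common to all genes; quantile normalization moved it by -0.061. With median-of-ratios scaling the turns were Zfp27 (0.071), Zfp451 (0.072), Zfp777 (0.082) and Zfp809 (0.015). With quantile normalization they were Zfp131 (0.030), Zfp451 (0.013), Zfp672 (-0.011), Zfp777 (0.037), Zfp78 (-0.11), Zfp809 (0.0061), Zfp940 (-0.076) and Zfp983 (-0.19). With the correction they were Zfp451 (0.0036), Zfp672 (-0.20), Zfp777 (0.19), Zfp78 (-0.0043), Zfp800 (-0.032), Zfp830 (-0.0019), Zfp91 (-0.088), Zfp940 (-0.19) and Zfp983 (-0.19). Leaving out 1 library gave -0.059 to 0.27 for Zfp384, -0.081 to 0.29 for Zfp445, -0.084 to 0.11 for Zfp64, -0.11 to 0.11 for Zfp672, -0.075 to 0.14 for Zfp940, -0.12 to 0.11 for Zfp27, -0.24 to 0.092 for Zfp451, -0.13 to 0.11 for Zfp777, -0.35 to 0.078 for Zfp809 and -0.13 to 0.13 for Zfp983.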

Other observations

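Of the 136 Zfp genes below a medium mean of 5 TPM, 63 passed the filter of the test and 15 stood at the table's lowest value in all 9 libraries. The median log2 difference between TRAIL-treated and stimulated cells over these 63 was -0.06, with 2 called higher and 6 lower, or 3.17% and 9.52%, beside 16.6% and 14.3% of genes tested. In stimulated cells against medium, 49 of the 63 were below 0, beside 8742 of 15536 genes tested, and their median was -0.40. A difference of at least 1 was seen downward for 7 and upward for 2, beside 19.6% and 12.5% of genes tested. Of the 63, 3 that were higher after stimulation are named here after their values were seen. Zfp580 had 2.72, 4.99 and 4.57 TPM in medium, 8.28, 9.69 and 10.8 TPM after stimulation and 3.81, 4.01 and 3.50 TPM with TRAIL. Zfp239 had 3.97, 3.41 and 4.21 TPM, then 7.03, 9.05 and 8.15 TPM, then 2.76, 1.63 and 1.31 TPM. In both genes the stimulated libraries lay above the other 6. Zfp428 had 1.42, 1.67 and 1.11 TPM in medium, 5.50, 4.07 and 4.72 TPM after stimulation and 1.48, 1.08 and 1.22 TPM with TRAIL.

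By number of fingers, the median log2 difference between stimulated and medium cells was -0.28 for 45 members with 1 to 5 fingers, -0.48 for 71 with 6 to 10, -0.74 for 75 with 11 to 15 and -0.85 for 43 with more. The median medium level over the same classes was 30.4, 20.8, 15.2 and 13.4 TPM. These are descriptions without a test, since the rule used the medium libraries.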
